A study of Mus musculus with 6 samples.

Results

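A set of 9 chemokine genes that tumor tissue can express (9 of the 36799 genes or unnamed transcripts on the array) were followed in CD45- cells of mouse mammary tumors with and without the receptor RANK. They were the CXC ligands Cxcl1, Cxcl2, Cxcl3, Cxcl5, Cxcl13, Cxcl14, Cxcl16 and Cxcl17, together with Cx3cl1, which belongs to the CX3C and not to the CXC class. Each was found by the transcript that its probe names. The set was chosen by gene family with its log2 ratios of RANK-/- over RANK+/+ on these same arrays known. Those ratios are therefore given as a description, and no test is attached to them.

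RANK, the receptor of the cytokine RANKL and an activator of NF-kB, is encoded by Tnfrsf11a. The cells came from carcinomas of MMTV-PyMT mice on the C57BL/6 strain, in which the mouse mammary tumor virus promoter drives the polyoma middle T oncogene. Both groups carried this transgene. The donor cells were RANK+/+ or RANK-/-, the latter from mice lacking the receptor in all tissues, and were grown in the mammary gland of syngeneic C57BL/6 recipients, whose own stroma and blood cells enter the tumor. The labels name no drug and give no ages. After dissociation, live cells negative for CD45, the surface protein of leukocytes, were sorted. RNA of one genotype was hybridized against RNA of the other on 2-color arrays, in 3 pairs with 2 technical arrays (A and B) each. The series design calls the pairs biological replicates, and how many tumors or recipients stand behind an RNA was not stated.

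Chemokines are small secreted proteins that draw leukocytes along a gradient through receptors on the leukocyte surface. CXC ligands with an ELR motif before the first cysteines, among them Cxcl1, Cxcl2, Cxcl3 and Cxcl5, act mainly on Cxcr2 and attract neutrophils. Their genes are classical NF-kB targets that are switched on by interleukin 1, tumor necrosis factor and interleukin 17. Cxcl13 attracts B cells through Cxcr5, Cxcl14 and Cxcl17 are expressed by epithelia, and Cxcl16 and Cx3cl1 are made as membrane-bound proteins from which metalloproteases release the soluble form.

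The promoters of Cxcl1, Cxcl2 and Cxcl3 are shown because these neighboring genes carry the same NF-kB-type motif close to their start, while the arrays gave signal above background for Cxcl1 and Cxcl2 and not for Cxcl3. The 140 bases before each start are printed on the plus strand from RefSeq, assembly GRCm38.p6, and capitals mark an 11-base run that all of them share. They lie at chr5:90891105-90891244 for Cxcl1, chr5:90903759-90903898 for Cxcl2 and chr5:90785961-90786100 for Cxcl3.
Cxcl1: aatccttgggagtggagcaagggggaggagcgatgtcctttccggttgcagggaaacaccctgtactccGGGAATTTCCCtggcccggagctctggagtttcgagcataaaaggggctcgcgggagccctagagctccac
Cxcl2: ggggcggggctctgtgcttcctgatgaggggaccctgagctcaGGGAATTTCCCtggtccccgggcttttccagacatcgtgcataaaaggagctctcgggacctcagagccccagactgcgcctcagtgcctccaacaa
Cxcl3: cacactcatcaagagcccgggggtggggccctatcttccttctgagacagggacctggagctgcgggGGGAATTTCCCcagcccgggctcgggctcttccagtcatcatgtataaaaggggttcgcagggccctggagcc
The run GGGAATTTCCC lies 71 to 61 bases before the start of Cxcl1, 97 to 87 before that of Cxcl2 and 73 to 63 before that of Cxcl3. The run was read off the Cxcl1 promoter and then searched on both strands in the 250 bases before the start in all 32851 promoter windows of the table. It was present in 14 of them (0.0426%), 3 of which were these genes. The looser NF-kB consensus occurred in 7.25% of the windows. In each of the 3 genes it matched 2 times, once on each strand, both inside the run and overlapping each other. Windows were listed for 6 of the 9 chemokines, and those of Cxcl13, Cxcl14 and Cx3cl1 held no match to the consensus. The AP-1 letters TGANTCA, found in 6.75% of all windows on both strands, were in none of the 6. The TATA box letters TATAAA, searched on the gene's strand, were in 7.59% of all windows and in those of Cxcl3, Cxcl13 and Cx3cl1. A match of letters is a description and not evidence that a factor bound there.

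The probe for Tnfrsf11a went against the labels. RNA labeled RANK-/- gave the higher level in each pair, by 2.03, 1.15 and 1.76 on the log2 scale (mean 1.65 ± 0.45, SD, n = 3), and the probe was well above background everywhere. Whether this probe lies in the deleted part of the gene was not given in the sources used here. Whether genotype labels or dyes were exchanged was not tested, and an exchange would reverse every direction given below. The labels were kept. Every direction below is therefore that of the channel labeled RANK-/- over the channel labeled RANK+/+. Pair 1 had RANK-/- RNA in Cy5, and pairs 2 and 3 had it in Cy3, so dye arrangement and pair 1 cannot be told apart. Probes well above background made up 51.9 to 58.8% of an array's channel, and no spot was saturated. Markers of luminal epithelium (Epcam, Krt8, Krt18, Krt19, Cdh1) were above background on all arrays, and so were all 7 fibroblast markers. The material was thus CD45- tumor tissue and not tumor cells alone. In such bulk RNA, fewer cells of a type and less RNA per cell cannot be told apart.

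Of the 9 chemokines, 8 were well above background on all 6 arrays in either channel. The exception was Cxcl3. Cxcl1 and Cxcl2 were higher in RANK-/- in all 3 pairs, a pattern shown by 9.95% of the 22503 genes that passed the filter on dim probes. Cxcl5 was lower in all 3 pairs, as were 9.65% of all genes. Since the list was chosen with these ratios known, nothing is read from the counts. The other 5 genes, Cxcl13, Cxcl14, Cxcl16, Cxcl17 and Cx3cl1, had one sign in one or more pairs and the other sign in the rest. Across all 22503 genes, limma with Benjamini-Hochberg adjustment called 0 (0%) at 0.05, and 646 (2.87%) had an unadjusted p below 0.05. The rank product called 10 genes higher (0.0444%) and 8 lower (0.0356%), with 0 of the 9 chemokines among them.

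**Figure D1:**
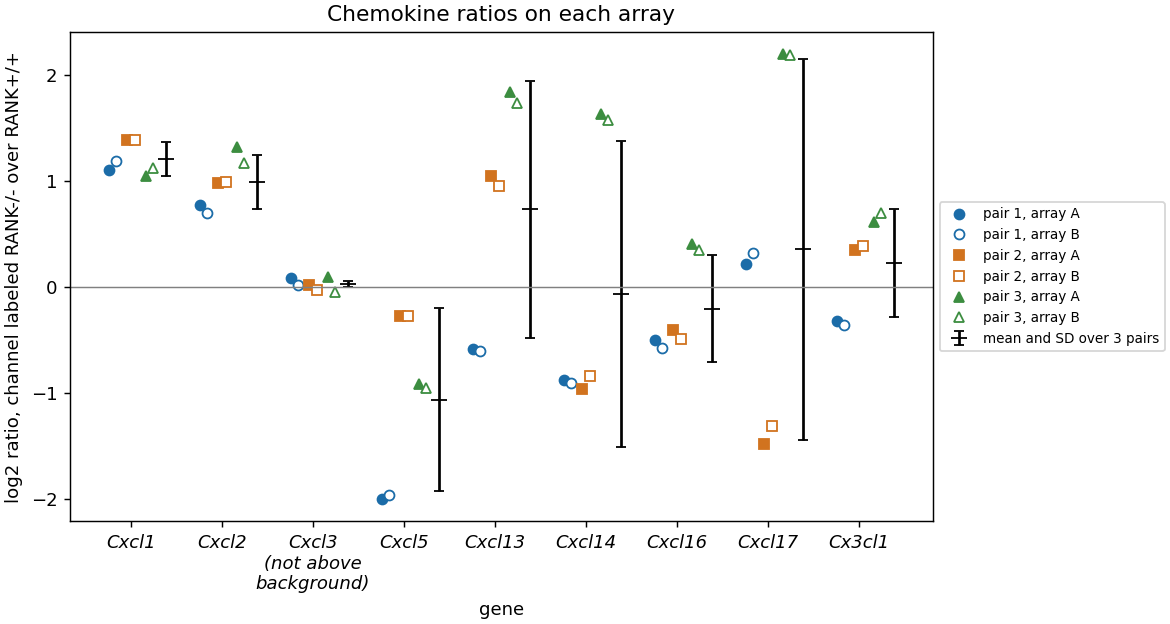
The log2 ratio of the channel labeled RANK-/- over that labeled RANK+/+ is plotted for each chemokine, with 1 point per array (color and shape give the pair, filled points array A, open points array B) and a bar for the mean and SD over 3 pairs. Cxcl1 and Cxcl2 lie above 0 on every array and Cxcl5 below 0 on every array, while pairs of Cxcl13, Cxcl14, Cxcl16, Cxcl17 and Cx3cl1 fall on both sides of 0.

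Cxcl1, a ligand that brings neutrophils to inflamed tissue, was higher in RANK-/- by a similar amount in each pair after loess normalization. Its normalized log2 level was 13.41, 14.00 and 12.82 in the RANK-/- channels of pairs 1, 2 and 3, and 12.26, 12.61 and 11.73 in the RANK+/+ channels. The groups did not overlap, the lowest RANK-/- level being 0.21 above the highest RANK+/+ level. Such a lack of overlap in this direction was found for 3.69% of all genes tested. The ratios were 1.15, 1.39 and 1.09 (mean 1.21 ± 0.16, SD, n = 3), which is 2.31-fold. Single arrays ran from 1.05 on array 3A to 1.39 on array 2B. Among all genes tested, 2.57% had a higher ratio than Cxcl1 in pair 1, 0.951% in pair 2 and 4.22% in pair 3. As scanned, its median spot signal was 5378 to 14438 in RANK-/- channels and 4002 to 7994 in RANK+/+ channels, far above local backgrounds of 29 to 73. The SD over pairs may be set beside the median SD of all tested genes, 0.33. Under median centering in place of loess, the ratios were less alike, at 1.40, 0.99 and 0.41, while those of Cxcl2 were 0.91, 0.79 and 0.83.

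Cxcl2, a second Cxcr2 ligand and the neighbor of Cxcl1 on the chromosome, had levels of 9.14, 9.27 and 8.66 in RANK-/- and 8.40, 8.28 and 7.41 in RANK+/+. These groups did not overlap either, with a gap of 0.26 on the log2 scale. The ratios were 0.74, 0.99 and 1.25 (mean 0.99 ± 0.26, SD, n = 3), or 1.99-fold, so pair 1 gave the smallest ratio and pair 3 the largest. Its spot signals were 291 to 604.5 in RANK-/- channels and 225 to 382 in RANK+/+ channels, over backgrounds of 28 to 70. Pair 3 was the lowest pair in both genotypes for Cxcl1 as for Cxcl2. Over the 6 channel levels (3 pairs, 2 genotypes) the Pearson r of Cxcl1 with Cxcl2 was 0.944, and 0.178% of the tested genes had a higher r with Cxcl1. The levels of a pair share their arrays, and the value is given as a description.

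**Figure D2:**
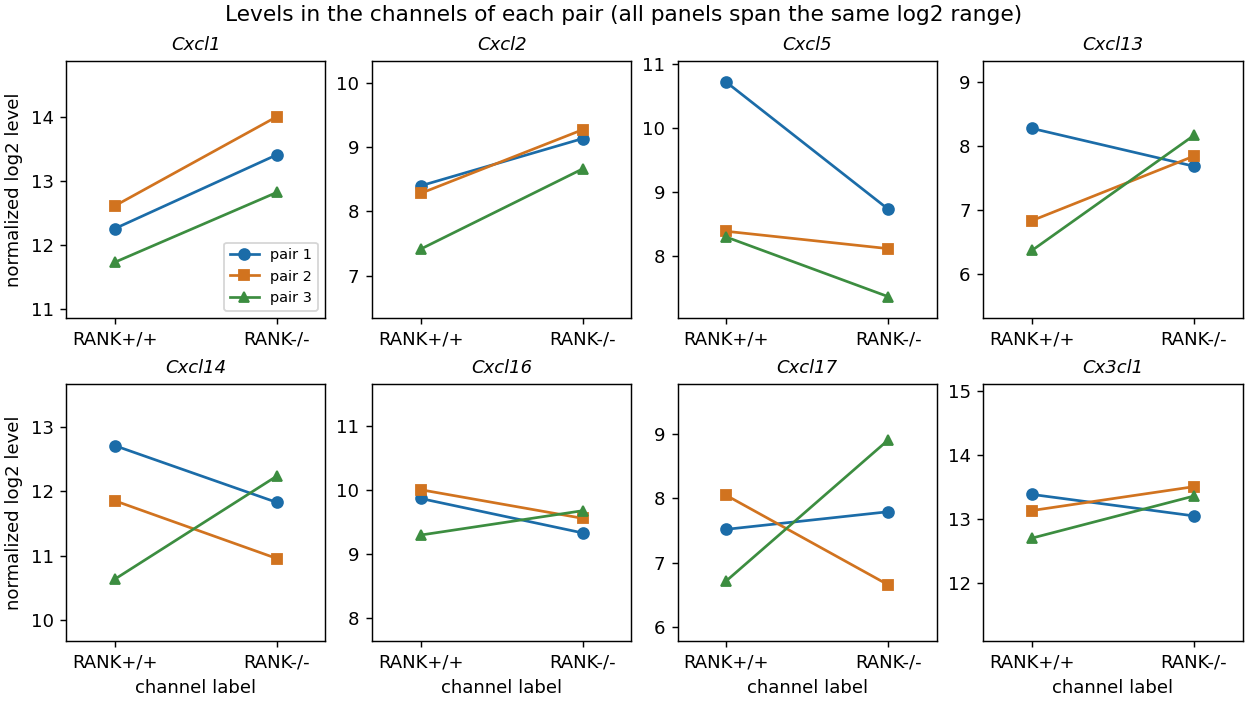
Normalized log2 levels of the 8 detected chemokines are plotted by channel label, with a line joining the RANK+/+ and the RANK-/- channel of each pair and the same log2 span in every panel. The 3 lines run upward for Cxcl1 and Cxcl2 and downward for Cxcl5, and they run in both directions for Cxcl13, Cxcl14, Cxcl16, Cxcl17 and Cx3cl1.

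Cxcl3, the third of these Cxcr2 ligands, was well above background in 0 of 6 arrays in either channel and was not tested. Its spot signal was 26.5 to 33 in Cy3 against local backgrounds of 26 to 35, and 63.5 to 70 in Cy5 against 60 to 71. The signals thus covered the same range as the background around the spot. Among the chemokines that did pass, Cxcl13 and Cxcl17 had signals of 98.5 to 245.5 and 55 to 386. A level of Cxcl3 below what this probe can measure was not detectable here, and its absence is not shown.

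Cxcl5 is an ELR ligand that epithelial cells make in quantity, and it ran opposite to Cxcl1 and Cxcl2. Its levels were 8.73, 8.12 and 7.37 in RANK-/- and 10.71, 8.39 and 8.30 in RANK+/+. The RANK+/+ channel of pair 1 stood far above the rest, and the groups overlapped, because RANK-/- of pair 1 was higher than RANK+/+ of pairs 2 and 3. The ratios were -1.98, -0.27 and -0.93 (mean -1.06 ± 0.86, SD, n = 3). The spot signals before normalization were 114 to 467 in RANK-/- channels and 375 to 1371 in RANK+/+ channels. After normalization, RANK+/+ exceeded RANK-/- by 3.95-fold in pair 1, 1.21-fold in pair 2 and 1.90-fold in pair 3. The spot signals themselves do not give these folds. In pair 1, 0.529% of all tested genes had a lower ratio, against 20.9% in pair 2 and 3.64% in pair 3. Without pair 1, the mean was -0.60. No chemokine had its highest RANK-/- level below its lowest RANK+/+ level, a separation found for 3.76% of all genes tested. The same pair stood apart for S100a8 and S100a9, which neutrophils make in quantity. S100a8 had ratios of -3.99, 0.07 and -0.11, and S100a9 of -4.12, -0.04 and -0.25. The other neutrophil markers that passed the filter, Csf3r with 0.42, -0.03 and -0.05 and Elane with 0.25, -0.38 and 0.14, were not lower in pair 1. Over the 4 of 6 markers that passed, the pair medians were -1.87, -0.03 and -0.08. Their summed linear levels ran from 44436 to 57937 in RANK-/- and from 46117 to 66234 in RANK+/+. These ranges are too narrow to follow the fall of S100a8 and S100a9 in pair 1. Most of the RANK-/- sum of pair 1 thus came from Csf3r, Elane or both, and the sum is not read as an amount of neutrophils. For S100a9, the probe cleared background on 4 arrays for RANK-/-, against 6 for RANK+/+. Mpo, above background on 2 arrays in each channel, did not pass, and Ly6g had no probe by that symbol. The 5 basal epithelial markers had pair medians of -1.41, 0.02 and -0.01, but single markers differed and low keratin ratios were not confined to pair 1. Krt5 had ratios of -1.41, -2.13 and 0.33, Krt14 of -1.81, 0.12 and -0.44, and Krt17 of -1.66, 0.05 and -2.10. Trp63 had 0.28, -0.02 and 0.17, and Acta2 had 0.89, 0.02 and -0.01. Under median centering in place of loess, these 3 keratins were lower in all pairs. The summed levels of the basal list were 26272 to 30311 in RANK-/- and 32623 to 52352 in RANK+/+. The part of either cell type in the Cxcl5 ratio was not tested.

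The same neutrophil and basal values stand beside Cxcl1 and Cxcl2, which were above 0 in pair 1, as were Csf3r, Elane, Trp63 and Acta2, whereas S100a8, S100a9 and the keratins were below 0. General leukocyte markers (Ptprc, Coro1a, Laptm5) were dim, with summed levels of 295 to 527 in RANK-/- and 268 to 1006 in RANK+/+, and pair medians of -0.93, 0.10 and 0.14. Of 5 T cell markers, 2 passed.

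**Figure D3:**
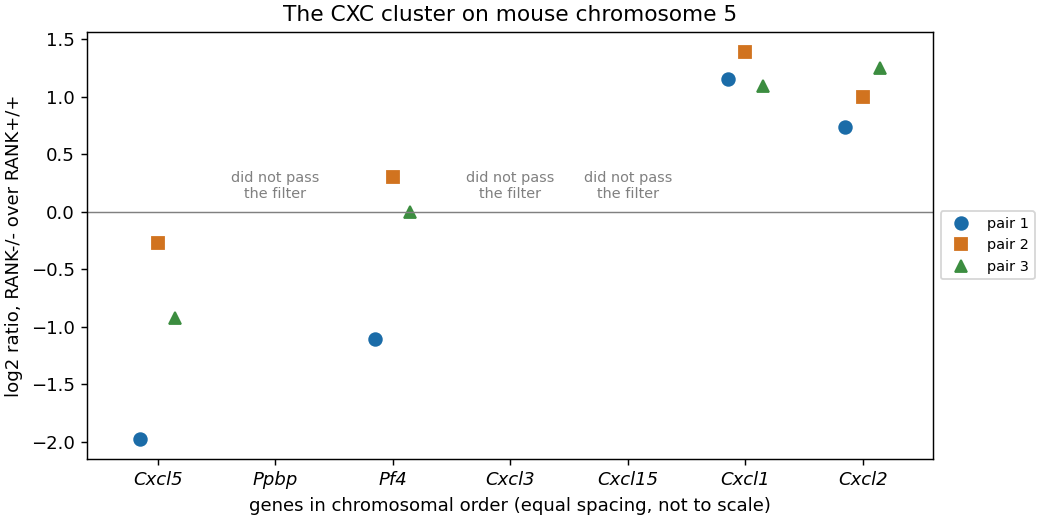
The log2 ratio of each pair is plotted for the 7 CXC genes of the chromosome 5 cluster in chromosomal order, with equal spacing. Cxcl1 and Cxcl2 at one end lie between 0.74 and 1.39, Cxcl5 at the other end lies between -1.98 and -0.27, and Ppbp, Cxcl3 and Cxcl15 did not pass the filter on dim probes.

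Cxcl1, Cxcl2, Cxcl3 and Cxcl5 lie on mouse chromosome 5 in a cluster of CXC genes, in the order Cxcl5, Ppbp, Pf4, Cxcl3, Cxcl15, Cxcl1 and Cxcl2. The neighbors Cxcl1 and Cxcl2 were both higher in RANK-/-, while Cxcl5 at the other end was lower. Over the 6 levels, the r of Cxcl1 with Cxcl5 was -0.29. Pf4, a platelet chemokine in the middle of the cluster, had ratios of -1.11, 0.30 and -0.00, while Ppbp, another platelet chemokine, and Cxcl15, a lung chemokine, did not pass the filter.

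Cxcl13, which organizes B cells in lymphoid tissue, changed sign between pairs. Its levels were 7.68, 7.84 and 8.16 in RANK-/- and 8.27, 6.84 and 6.37 in RANK+/+. The RANK-/- channels thus lay within 0.48 of each other, and the RANK+/+ channels spread over 1.90. Ratios were -0.59, 1.01 and 1.79 (mean 0.74 ± 1.21, SD, n = 3). The spot signals were low, from 98.5 to 245.5 over both channels, with backgrounds of 28 to 70. Without pair 1 the mean was 1.40, and without pair 3 it was 0.21.

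Cxcl14, a chemokine of normal epithelium and of tumor fibroblasts, had spot signals of 1617 to 5575.5 and no constant direction. Levels were 11.83, 10.95 and 12.24 in RANK-/- and 12.71, 11.85 and 10.63 in RANK+/+. Pairs 1 and 2 had lower RANK-/- levels and pair 3 a higher one, with ratios of -0.89, -0.90 and 1.61 (mean -0.06 ± 1.44, SD, n = 3). Arrays A and B of each pair differed by at most 0.12, so the change of sign lay between pairs and not between technical arrays.

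Cxcl17, a chemokine of mucosal surfaces, had the widest spread. Its levels were 7.79, 6.65 and 8.91 in RANK-/- and 7.52, 8.05 and 6.71 in RANK+/+. The ratios of 0.27, -1.40 and 2.20 (mean 0.36 ± 1.80, SD, n = 3) had an SD 5.47 times the median SD of all tested genes. In pair 3 the RANK-/- channel was 4.59-fold higher, and in pair 2 the RANK+/+ channel was 2.63-fold higher. The RANK-/- spot signals of pair 2 were low, at 55 on array 2A and 62 on array 2B, over backgrounds of 29.5 and 30. With pair 3 left out the mean was -0.56. Over the 6 levels its closest companion among the chemokines was Cxcl14, with an r of 0.71. Of all tested genes, 6.14% had a higher r with Cxcl14.

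The membrane-bound chemokines had ratios between -0.54 and 0.66 in every pair. Cxcl16, the ligand of Cxcr6 and a scavenger receptor for oxidized lipoprotein, had levels of 9.33, 9.55 and 9.67 in RANK-/- and 9.86, 10 and 9.29 in RANK+/+. The groups overlapped, and the ratios were -0.54, -0.45 and 0.38 (mean -0.20 ± 0.50, SD, n = 3). Cx3cl1, or fractalkine, the ligand of Cx3cr1 on monocytes and natural killer cells, had levels of 13.05, 13.50 and 13.36 in RANK-/- and 13.38, 13.13 and 12.70 in RANK+/+. Its ratios were -0.34, 0.37 and 0.66 (mean 0.23 ± 0.51, SD, n = 3), again with overlap. Its spot signals, 7522.5 to 11264 over both channels, were far above backgrounds of 29 to 72. Cxcl13 and Cx3cl1 had the same sign in each pair, and their r over the 6 levels was 0.84. Of all tested genes, 2.91% had a higher r with Cxcl13. The metalloproteases that shed Cxcl16 and Cx3cl1 had small ratios, 0.18, -0.51 and -0.29 for Adam10 and 0.15, -0.10 and -0.20 for Adam17.

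The share of chemokines above 0 differed between pairs. In pair 1, 3 of the 8 detected chemokines had a ratio above 0, in pair 2 there were 4, and in pair 3 there were 7. The medians over the 8 genes were -0.44, 0.05 and 1.17, beside medians of 0.02, -0.01 and 0.00 over all tested genes. The median of the 8 mean ratios was 0.29, against 0.00 for all genes, but -0.24 with pair 3 left out. Since the list was chosen with these ratios known, nothing is read from these counts and medians. Technical arrays of a pair differed by 0.07 at the median and by 0.17 at most over these 8 genes, so the differences between pairs exceeded those between arrays A and B.

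The median of the fibroblast markers was lowest in pair 1 and highest in pair 3, as were Cxcl2, Cxcl13, Cx3cl1 and the general leukocyte median. This order was not particular to them. Cxcl12, Ackr3 and the medians of the NF-kB and inducing cytokine lists, all given below, had it too. All 7 fibroblast markers passed the filter, with pair medians of 0.16, 0.85 and 2.01. Single markers differed, Pdgfrb having 1.60, -1.03 and 0.76 and Col1a1 0.68, 0.30 and 1.94. The list had summed levels of 138290 to 223320 in RANK-/- and 47224 to 140110 in RANK+/+. Col1a1 and Col1a2, the chains of type I collagen, and Pdgfra were higher in all 3 pairs, but none of the 7 passed limma. Under median centering in place of loess, Col1a1 and Pdgfra no longer had one sign, whereas Col3a1 and Lum did. Endothelial markers had pair medians of -0.00, -0.10 and 0.52 with summed levels of 2899 to 3344 in RANK-/- and 2351 to 3113 in RANK+/+. Luminal markers had medians of 0.27, -0.67 and 0.52 with summed levels of 97160 to 381360 and 136530 to 228570. Macrophage markers, 6 of 6 above background, had medians of -0.46, 0.42 and 0.20 with summed levels of 1828 to 2506 and 1473 to 3595. Every marker of the fibroblast, endothelial, luminal and macrophage lists passed the filter, so none was at 0. Their part in the chemokine ratios was not tested.

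**Figure D4:**
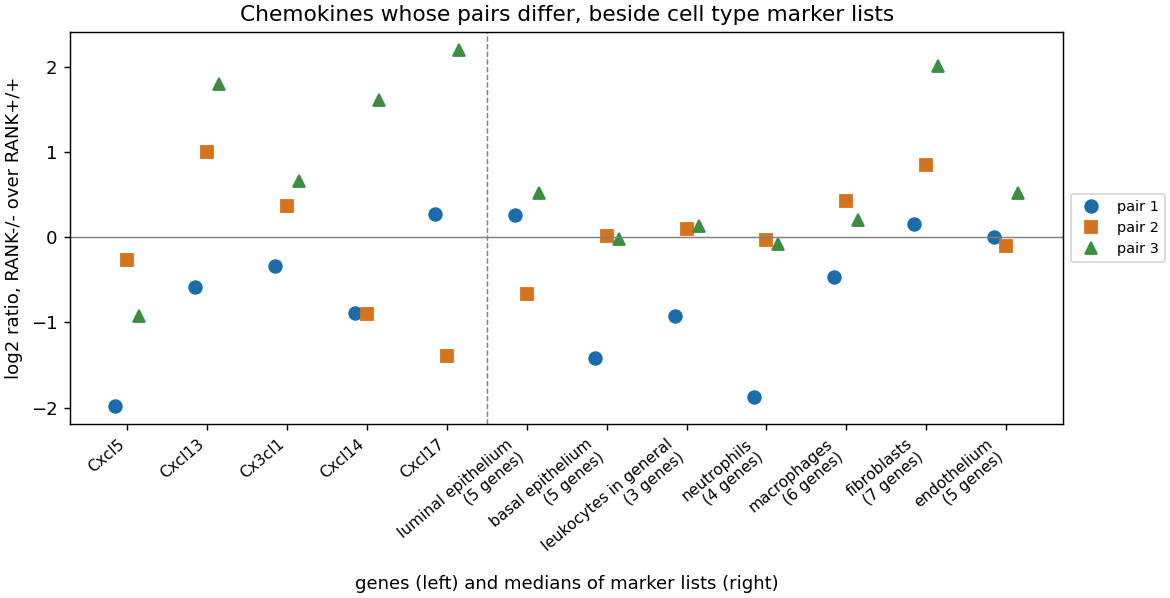
The log2 ratio of each pair is plotted for Cxcl5, Cxcl13, Cx3cl1, Cxcl14 and Cxcl17 (left of the dashed line) and as the median over the genes of each cell type marker list (right). Pair 1 is lowest for Cxcl5, Cxcl13 and Cx3cl1, and for the medians of neutrophil (-1.87), basal (-1.41), general leukocyte, macrophage and fibroblast markers. Pair 3 is highest for Cxcl13, Cx3cl1, Cxcl14, Cxcl17 and the medians of fibroblast (2.01), general leukocyte, luminal and endothelial markers.

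Among the other CXC ligands, 4 of 7 passed the filter, and 0 had one sign in all pairs. Cxcl9 and Cxcl10, interferon-induced ligands of Cxcr3 that attract T cells, varied most. Cxcl9 had ratios of -1.67, 3.15 and 2.54, and Cxcl10 of -1.57, 3.58 and 1.75. Cxcl12, the stromal ligand of Cxcr4, had ratios of -1.46, 0.82 and 2.07. These 3 genes were lower in pair 1 and higher in pairs 2 and 3, as were Cxcl13 and Cx3cl1, and the list medians were -1.51, 1.98 and 1.91. By that symbol, Cxcl11 had no probe.

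Of 10 receptors and scavengers, 6 passed the filter. Cxcr2, the main receptor of Cxcl1, Cxcl2 and Cxcl5, did not pass, nor did Cxcr1, Cxcr3 and Cxcr5. Cxcr6, the receptor of Cxcl16, had ratios of -1.27, -0.47 and -0.05, lower in each pair but not in each on arrays A alone or with the processed signals. Cx3cr1, the receptor of Cx3cl1, had -0.38, -0.06 and 0.18. Cxcr4 went the opposite way to its ligand Cxcl12, with 1.65, -0.22 and -1.73. Gpr35, which has been proposed as a receptor of Cxcl17, had -0.17, -0.21 and 0.60. Of the scavengers, Ackr1, which binds many inflammatory chemokines on endothelium, was higher in each pair with 0.38, 0.27 and 1.39, and Ackr3, which takes up Cxcl12, had -0.02, 0.69 and 1.17. None of the 6 receptors tested passed limma, 0 had an unadjusted p below 0.05, and 0 were called by the rank product.

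NF-kB genes were examined because the ELR ligands are NF-kB targets. Of 15 subunits, inhibitors and kinases, 14 passed the filter, 4 were higher in all 3 pairs and 0 were lower, against 9.95% and 9.65% of all genes. Nfkbia, which encodes the inhibitor IkB alpha and is itself induced by NF-kB, had ratios of 0.13, 1.58 and 1.66. Tnfaip3, which encodes the NF-kB feedback inhibitor A20, had 0.33, 1.66 and 1.03. Nfkbie, a further inhibitor, and Map3k14, the kinase of the alternative pathway, were the other 2. The list median was -0.01 in pair 1, 0.30 in pair 2 and 0.65 in pair 3. Nfkbia and Tnfaip3 kept one sign in all pairs under each setting that kept every pair. Map3k14 did not under median centering or with probes averaged, and Nfkbie did not with the processed signals or on arrays B alone. Ikbkb and Ikbkg were lower in all pairs with the processed signals, and Chuk was under median centering. Conversely, Nfkb2 was higher in all pairs under median centering and Nfkb1 with probes averaged. By limma 0 of the 14 passed, 2 had an unadjusted p below 0.05, and the rank product called 0.

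Of 10 cytokines and receptors that switch on these chemokines, 8 passed the filter, and Il1a and Il17a did not. Il6 had ratios of 0.60, 0.37 and 3.02, and Il1r1, the receptor of interleukin 1, had 0.09, 0.58 and 0.96. Both were higher in every pair, although Il1r1 was not with the processed signals. The list medians were -0.25, 0.35 and 0.71. Chemokine messages are also limited by decay, and all 7 listed regulators of that decay passed the filter. Zfp36l1, which promotes decay, had ratios of 0.31, 0.24 and 0.57, but did not keep one sign under median centering. Zc3h12a, the endonuclease Regnase-1, had -0.20, -0.28 and 1.39. In these 2 lists limma called 0 genes, 0 had an unadjusted p below 0.05, and the rank product called 0.

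Genes whose 6 levels most resembled those of Cxcl1 were ranked by Pearson r. The closest was a transcript without a symbol in the table used (r = 0.991), followed by Vapb (0.988), Tapbpl (0.982), 1700037C18Rik (0.980) and Hsd11b1 (0.976). Their mean ratios were 0.59, 0.56, 0.86, 0.84 and 1.02 in that order. The 6 levels come from 3 pairs of shared arrays, and the ranking over 22503 genes is a description.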

How the data were processed

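Per the labels, 6 arrays were scanned and extracted by the authors with Agilent Feature Extraction 10.7.3.1. The scanner files they deposited give spot and local background intensity in Cy5 and Cy3, not normalized. A deposited matrix of authors' normalized log2 ratios ran as RANK-/- over RANK+/+ (r 0.824 to 0.857 with scanner ratios) and was an alternative only. Labels gave groups, pairs and dyes. They show the same dye arrangement on arrays A and B of a pair, although the methods name dye swaps. All arrays shared 1 slide, so slide was not testable as a batch. Precision is limited by the number of pairs (3), because arrays A and B of a pair are technical replicates.

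Median signals were corrected with normexp (offset 50) and normalized by loess and Aquantile (limma 3.58.1, R 4.3.3, data.table version 1.17.8). Control spots (3671) and outlier spots (212 to 260 per array) were removed. Spots of a probe, then arrays A and B, were averaged (n = 3 pairs). Probes were kept if Feature Extraction called them well above background on arrays A and B alike in at least 2 pairs for one genotype (30231 of 55681), and the brightest probe stood for a gene. RefSeq (GRCm38.p6) named 28026 probes by accession. The array grid uses mm9, so no array coordinates are printed. Levels are channel values after Aquantile and are not compared between probes. The summed level of a list adds probes that differ in brightness, so it is not read as an amount of cells. Genes were tested with limma (intercept only, two-sided, Benjamini-Hochberg, 0.05) and, as an alternative, by rank product (500 draws). The fit was tested on simulated data, where recovery of changed genes was required only at noise below the median SD over pairs (0.33). An exact two-sided sign-flip test on 3 pairs cannot go below 0.25.

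The chemokines, gene lists and naming rule were chosen with earlier results of these data known. Named were the 9 chemokines, Tnfrsf11a, detected ligands and receptors, the 2 genes of largest mean ratio in each other list and the 5 genes most like Cxcl1. Marker genes, and genes making up a count of 5 or fewer, were named after their values were seen. Alternatives covered background correction, normalization, source of values, filters, probes, technical arrays, dye, pairing and each pair left out.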

Additional observations from a re-analysis of the deposited data

How the results depend on the processing

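Cxcl1 and Cxcl2 stayed above 0 and Cxcl5 below 0 in every pair under each setting tried. For these genes, the settings for filters, probes, dye, pairing and pairs left out reused the same pair ratios. Those settings could not change the signs, unlike those for background correction, normalization, source of values and technical arrays. With median centering in place of loess, which moved the median of all genes to -0.14, the Cxcl1 mean was 0.93, and 3 chemokines instead of 1 were lower in all pairs (Cx3cl1 and Cxcl16 joined Cxcl5). Leaving out each pair gave 2 to 4 chemokines higher in all pairs left (4 without pair 1, with Cxcl13 and Cx3cl1) and 1 to 3 lower (3 without pair 3, with Cxcl14 and Cxcl16). Over the pairs left out, the means ran from 1.12 to 1.27 for Cxcl1, 0.86 to 1.12 for Cxcl2, -1.46 to -0.60 for Cxcl5 and 0.21 to 1.40 for Cxcl13. The mean of Cxcl14 changed sign without pair 1 (0.35) or pair 2 (0.36), that of Cxcl17 without pair 3 (-0.56) and that of Cx3cl1 under median centering (-0.07). A dye term gave 1.20 for Cxcl1, 0.93 for Cxcl2, -1.29 for Cxcl5 and 0.40 for Cxcl13. With no filter on dim probes, Cxcl3 joined Cxcl1 and Cxcl2 (3 genes higher in all pairs), from signals at background. The number of genes called by limma was 0, but 298 when the 6 arrays were entered as separate replicates. That setting treats technical arrays as independent, so nothing is read from it for single genes. The rank product called 18. With no replicate block, the channels entered as separate samples, limma called 0 genes, and the means were the same by construction. The deviations of the channels of a pair correlated at -0.03, -0.22 and -0.04. Whether the 2 RNAs of a pair shared more than their arrays was not tested. The causes of these changes were not tested.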
